A study of Mus musculus with 17 samples.

Results

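Constitutively open distal regions are stretches of accessible chromatin outside annotated promoters that read at similar, substantial levels in 3 stages of the B lineage: naive cells (nB), cells of the germinal center (GCB) and plasma cells of the bone marrow (BMPC). They were selected on the control (C) libraries of an ATAC-seq table of 66177 regions: a region was kept where the table annotates no promoter, where it lies off chrX, chrY and chrM, where the C mean of each of the 3 cell types was at least 10 RPPM, and where the highest of these means was at most 1.5 times the lowest. RPPM is the number of reads in a region per 1000000 reads in all regions of that library. The rule kept 1713 regions, which are 2.59% of the table, 3.38% of its 50648 distal regions off those chromosomes, and 31.7% of the 5412 distal regions whose C means all reached 10 RPPM. The levels and the likeness of the C libraries chose these members, so C values are given as a description and without a test. The knockout (KO) libraries took no part in the choice.

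The C mice carried Dnmt3afl/fl and Dnmt3bfl/fl without Cre, and the KO mice the same floxed alleles with 1 Cre allele that is active in the B lineage, on the strain labelled B6;129S4-Dnmt3atm3.1Enl Dnmt3btm5.1Enl/Mmnc at 8 to 12 weeks of age. KO mice thus lose Dnmt3a and Dnmt3b, the enzymes of new DNA methylation, in B cells and the cells derived from them, while C mice carry the floxed alleles intact. The nB were B220+ GL7- Fas- lymph node cells of male mice that had not been immunized (3 C and 2 KO libraries). The GCB were B220+ GL7+ Fas+ PE+ lymph node cells from pools of mice of either sex (2 C and 4 KO libraries). They were taken 30 days after immunization with phycoerythrin (PE) in complete Freund's adjuvant. The BMPC were CD138+ bone marrow cells of female mice at the same time (3 C and 2 KO libraries). Cell type therefore cannot be told apart from immunization, nor BMPC from tissue, and sex differs with it. Each nB or BMPC library came from its own mouse and each GCB library from its own pool of 2 mice, by the mouse numbers given with the study, so a p-value measures the spread between mice or pools. The nB libraries held 4104875 to 6079018 reads in regions, the GCB libraries 907959 to 2280954 and the BMPC libraries 5357687 to 8232313, so that 10 RPPM stood for 41.0 to 60.8, 9.08 to 22.8 and 53.6 to 82.3 reads. Of B cell markers, the Pax5 promoter read 36.0 to 47.7 RPPM in nB, 15.4 to 24.8 RPPM in GCB and 2.02 to 3.89 RPPM in BMPC, and the Ms4a1 promoter 78.0 to 84.3, 54.0 to 88.4 and 11.7 to 16.6 RPPM. The Tnfrsf17 promoter read 15.5 to 22.6 RPPM in BMPC and at most 6.36 RPPM elsewhere. Against the usual order, the Bcl6 promoter read 14.0 to 21.6 RPPM in GCB and 49.3 to 58.9 RPPM in nB, and that of S1pr2 read 14.0 to 29.0 RPPM in GCB and 37.3 to 41.0 RPPM in BMPC. Sdc1, which encodes CD138, had no promoter region in the table. Of the T cell markers 1 of 5 (Lck, 26.7 to 59.5 RPPM) had a promoter region in the table. Of the myeloid markers 2 of 5 did (Itgam and Elane, summing to 3.28 to 10.7 RPPM), and of the erythroid markers 0 of 3 did.

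Accessible chromatin away from promoters holds enhancers, insulators and other sites where transcription factors displace nucleosomes. Enhancers are often open in one stage of a lineage and closed in the next, since they rely on factors that come and go with cell fate. Sites of CTCF, the zinc finger protein that anchors chromatin loops together with cohesin, are known to be bound in many cell types. CpG-rich sequences away from known genes can also be accessible across tissues, as CpG island promoters are. Dnmt3a and Dnmt3b place new methyl groups on CpG cytosines.

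Sequences of members with and without the letters of a CTCF motif are shown here. The first set shows the 6 members with the highest KO mean whose CTCF core lies within 100 bases of the region's centre. One further region ranked among them, near Kcnq5, was passed over, since the table annotates an untranslated region in it. The core is 12 letters cut from the CTCF consensus, CCANNAGNNGGC, in which 8 letters are fixed. Capitals mark it within 25 bases on each side, read from the strand that carries it, on the mm9 assembly.
Gm4971, chr7:80763376-80763437, minus strand: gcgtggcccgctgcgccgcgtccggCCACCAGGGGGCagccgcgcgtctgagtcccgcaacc
Stard10, chr7:108459279-108459340, plus strand: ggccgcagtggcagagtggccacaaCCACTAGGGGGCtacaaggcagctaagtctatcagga
Rnase12, chr14:51683150-51683211, minus strand: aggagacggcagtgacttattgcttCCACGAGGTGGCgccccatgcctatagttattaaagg
Dhx57, chr17:80636611-80636672, minus strand: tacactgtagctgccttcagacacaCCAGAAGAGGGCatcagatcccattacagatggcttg
Yy1, chr12:109996205-109996266, minus strand: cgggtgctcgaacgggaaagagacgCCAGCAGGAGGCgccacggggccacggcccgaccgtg
Crb2, chr2:37627434-37627495, minus strand: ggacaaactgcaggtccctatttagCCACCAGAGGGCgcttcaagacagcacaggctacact

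The second set shows the central 120 bases of the 3 members with the highest KO mean that lack the core, passing over the member annotated to Zfp958, whose centre overlaps an untranslated region of Gm7461 in GENCODE vM1 though not in the table. Capitals mark CpG dinucleotides, the letters on which Dnmt3 enzymes act. The 3 windows hold 11, 13 and 5 CpG.
Arrdc3, chr13:81025091-81025210, plus strand: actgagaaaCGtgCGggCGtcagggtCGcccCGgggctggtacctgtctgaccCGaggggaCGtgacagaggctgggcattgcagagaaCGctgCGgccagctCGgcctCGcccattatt
Region on chr6 with no gene symbol, chr6:145289380-145289499, plus strand: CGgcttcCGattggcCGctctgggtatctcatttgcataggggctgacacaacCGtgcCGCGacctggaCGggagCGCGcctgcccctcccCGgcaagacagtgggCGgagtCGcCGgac
Foxj2, chr6:122761127-122761246, plus strand: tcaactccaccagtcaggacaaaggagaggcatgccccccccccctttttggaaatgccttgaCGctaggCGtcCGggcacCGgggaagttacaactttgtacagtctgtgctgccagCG

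The members were mostly intronic or intergenic. In the table's annotation 840 of them (49.0%) touch an intron, 247 (14.4%) an exon, 46 (2.69%) a 5′ UTR and 75 (4.38%) a 3′ UTR, and 829 (48.4%) touch none of these. Among all distal regions 53.2% touch an intron and 44.7% touch no gene part. Members lay closer to starts, at a median distance of 11100 bp from the nearest annotated start (middle 50% from 3970 to 24900 bp), where all distal regions lay at 17700 bp (from 7510 to 40400 bp). They were also wider, at a median of 825 bp against 467 bp for all distal regions and 878 bp for the 3699 distal regions that reached 10 RPPM but exceeded the 1.5-fold limit, called open variable regions from here on. The distance to starts in open variable regions was near that of members, at a median of 12600 bp (from 4720 to 29300 bp). Members occur on every autosome, from 127 on chromosome 1 to 54 each on chromosomes 18 and 19, and make up between 2.82% (chromosomes 11 and 15) and 4.11% (chromosome 17) of the distal regions there. The 6 members on random or unplaced sequence have no coordinates on the assembled chromosomes, so that sequence was read for 1707.

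The word distal holds only as far as the table's promoter annotation goes. In GENCODE vM1, an annotation of the same assembly that also lists non-coding transcripts, 149 of 1707 members (8.73%) contain a transcript start, against 2.72% of distal regions, 8.07% of open variable regions and 94.9% of the 4746 promoter regions that meet the same limits on assembled chromosomes. Of these 149 starts, 58 belong to protein-coding transcripts, 31 to processed transcripts, 22 to lincRNA and 16 to transcripts with a retained intron. A start lies within 1 kb of 292 members (17.1%).

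In the KO libraries, 1133 of the 1713 members (66.1%) met the limits that had been set on the C libraries, with each KO mean at least 10 RPPM and a ratio of at most 1.5. The same held for 450 open variable regions (12.2%), for 1769 of all distal regions (3.49%) and for 3889 promoter regions within the limits (81.8%). The ratio of the highest to the lowest KO mean had a median of 1.37 in members (middle 50% from 1.23 to 1.57), 2.07 in open variable regions, 1.3 in the promoter regions and 3.57 in all distal regions. It exceeded 2 in 64 members (3.74%) and in 54.1% of open variable regions. The share that met the limits in KO was higher among brighter members: 54.9% of the 667 with a mean of the 3 C levels from 10 to 20 RPPM, 69.0% of the 612 from 20 to 40 RPPM, 77.3% of the 353 from 40 to 80 RPPM and 88.9% of the 81 at 80 RPPM or more. The spread over the 8 KO libraries, which mixes cell types and replicates, had a median coefficient of variation of 19.7% in members and 34.8% in open variable regions.

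The KO mean, taken over the 8 KO libraries, had a median of 23.5 RPPM in members (5th to 95th percentile from 11.9 to 74.9 RPPM) and ran from 8.73 to 197 RPPM. No member was at 0 reads in any of the 16 libraries, and 1 member was under 3 reads, in the shallowest library (KO GCB replicate 1). Summed over members, the reads made up 5.58% ± 0.0551 (SD, n = 3) of the library in C nB and 5.63% ± 0.0566 (n = 2) in KO nB, 5.57% ± 0.0458 (n = 3) in C BMPC and 5.5% ± 0.0566 (n = 2) in KO BMPC, and 5.39% ± 0.0212 (n = 2) in C GCB. In the 4 KO GCB libraries the share was 4.87%, 5.0%, 5.35% and 5.14%, each below every library of the other groups. Depth and chrM moved with this share: the KO GCB libraries held 907959 to 2280954 reads with 7.43% to 10.1% of them on chrM, the C GCB libraries 2134829 and 2273600 reads with 8.60% and 8.76%, and the nB and BMPC libraries 2.56% to 4.59%. The part of depth and chrM in the lower share was not tested.

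The limits cut through a continuum of values. Just inside the level limit, the members at Plek2 and Ikzf3 had lowest C means of 10.005 RPPM each. Just outside, the regions at Arhgef2 and Gpr61 had 9.9908 and 9.9765 RPPM. Just inside the ratio limit stood the members at Tef and Tec, with C ratios of 1.4999 and 1.4998, and just outside the regions at Abhd12 and Gm10790, with 1.5001 and 1.5003. In KO the 4 members had ratios of 1.75, 2.45, 1.70 and 1.44, and the 4 regions outside lay between 1.24 (Arhgef2) and 2.16 (Gm10790).

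The 10 brightest members in KO libraries averaged 124 to 197 RPPM. The brightest is annotated to Zfp958, a zinc finger gene 63.9 kb away, and contains the start of Gm7461 (chr8:4677115-4678940). It measured 178, 223 and 190 RPPM in C nB, 189 and 206 RPPM in KO nB, 201 and 217 RPPM in C GCB, 225, 202, 224 and 197 RPPM in KO GCB, 157, 167 and 176 RPPM in C BMPC and 159 and 178 RPPM in KO BMPC. The 2 KO BMPC libraries thus lay under every other KO library. Its level in KO BMPC was lower than in KO GCB by a log2 difference of -0.33 ± 0.08 (SE; limma, adjusted p = 0.0015), short of the 2-fold limit for a call. The second lies 1.88 kb from the start of Arrdc3, which encodes an arrestin-like adaptor of membrane proteins, over the start of the non-coding transcript 1700023H06Rik (chr13:81024563-81025740). It measured 150 and 166 RPPM in KO nB, 173, 190, 215 and 174 RPPM in KO GCB and 131 and 126 RPPM in KO BMPC. The 3 KO groups did not overlap there, and the log2 difference between KO BMPC and KO GCB was -0.54 ± 0.09 (SE; limma, adjusted p = 1.71e-05).

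The other members of the 10 averaged 124 to 165 RPPM. A region on chr6 without a gene symbol (chr6:145288282-145290598) averaged 165 RPPM, and a region 8.08 kb from Foxj2, a forkhead transcription factor gene, averaged 160 RPPM (chr6:122760251-122762124). The member 60.7 kb from Pkdcc, which encodes a secreted protein kinase, averaged 151 RPPM (chr17:83675292-83678331) and went the other way: 154 and 138 RPPM in KO nB, 126, 140, 137 and 137 RPPM in KO GCB and 181 and 192 RPPM in KO BMPC, where both KO BMPC libraries lay above all other KO libraries. A member over the start of the lincRNA Gm16899 averaged 142 RPPM (chr1:7387158-7388670). Members 26.3 kb from Mirt1, a long non-coding RNA gene, and in an intron of Csrnp1, which encodes a nuclear protein, averaged 133 RPPM each (chr19:53497678-53499728 and chr9:119891034-119893213). A member over a U6 snRNA averaged 129 RPPM (chr12:53703436-53706122). U6 exists in many near-identical copies, so reads there may be assigned uncertainly. The last of the 10, 11.4 kb from Gm4832, averaged 124 RPPM (chr17:88512454-88513413). Of the 10 regions 6 are CpG island-like by the measure given further on, and 4 contain the CTCF core.

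**Figure D1:**
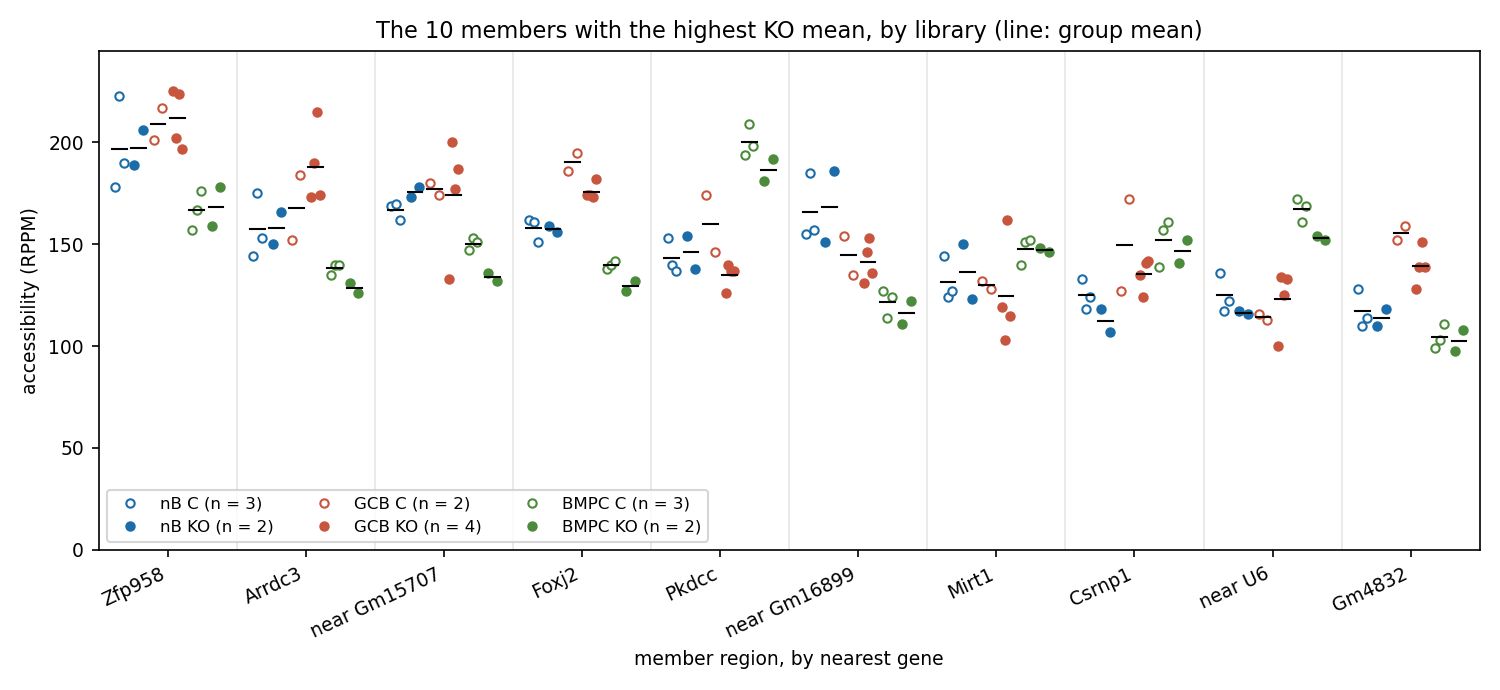
Accessibility in RPPM (vertical axis, from 0) of the 10 members with the highest KO mean in each of the 16 libraries, with open circles for C, filled circles for KO and a line at each group mean. All values lie between 97.5 and 225 RPPM, and the order of the cell types differs between members, with BMPC lowest at Zfp958 and highest at Pkdcc.

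Which members differ between cell types in libraries that did not choose them is asked by the 3 comparisons of KO cell types. The model was limma's, run on log2(RPPM + 1) values of the whole table of 66177 regions, a scale that understates changes at low levels. A call needed an adjusted p no greater than 0.01 together with a difference of at least 2-fold. Between KO GCB and KO nB, 16 members were called (0.934%), 3 higher and 13 lower in GCB, where 26.3% of all regions were called, 18.4% higher and 7.84% lower. Between KO BMPC and KO nB, 15 members were called (0.876%), 6 higher and 9 lower in BMPC, beside 35.3% of all regions, 18.4% higher and 16.9% lower. Between KO BMPC and KO GCB, 22 members were called (1.28%), 16 higher and 6 lower in BMPC, beside 32% of all regions, 12.1% higher and 19.9% lower. Counting each region once, 47 members (2.74%) were called in at least 1 of the 3 comparisons, beside 52.3% of all regions, 51.4% of open variable regions and 0.568% of the promoter regions within the limits. The comparisons share libraries and are not independent of each other. Without KO GCB replicate 3, 36 members were called between KO GCB and KO nB.

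The balance of higher and lower calls that involve GCB rests on the scaling. With TMM factors the split between KO GCB and KO nB was 0 higher and 31 lower. Quantile normalization gave 8 higher and 19 lower, and totals without chrM, chrX and chrY gave 8 and 7. For KO BMPC against KO GCB, the last of these scalings gave 5 higher and 9 lower, and quantile normalization 13 and 14. The median log2 difference of members between KO GCB and KO nB was -0.14 as deposited, -0.22 with TMM factors, -0.06 without chrM, chrX and chrY and 0.01 with quantile normalization, where the median of all regions was 0.12, 0.06, 0.19 and -0.07. No direction is therefore read for members as a set where GCB is compared. For KO BMPC against KO nB, TMM factors gave 3 higher and 9 lower, quantile normalization 3 and 8, and totals without chrM, chrX and chrY 6 and 9. The median of members from KO nB to KO BMPC was -0.01, with 0.08 for all regions. The lowest of the 3 KO means was that of GCB in 794 members (46.4%) as deposited and in 644 (37.6%) without chrM, chrX and chrY.

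Most members were bounded to less than a 2-fold difference. The 95% interval of the log2 difference lay wholly within 2-fold in 1510 members (88.1%) between KO GCB and KO nB, in 1477 (86.2%) between KO BMPC and KO nB and in 1499 (87.5%) between KO BMPC and KO GCB. Over all regions these shares were 35%, 28% and 32.5%, and in open variable regions 55.4%, 43.9% and 47%. Low regions have wider intervals, with a median SE of 0.174 to 0.201 in members and of 0.303 to 0.350 in all regions. At an unadjusted p under 0.05 and without the limit on size stood 680, 485 and 687 members (39.7%, 28.3% and 40.1%), beside 55.6%, 55.4% and 59.1% of all regions. On recovered reads and with the limit on size, edgeR's quasi-likelihood test called 37, 20 and 33 members beside 29.5%, 43.6% and 35.1% of all regions, its likelihood ratio test 37, 20 and 32 beside 31.7%, 45.4% and 37.1%, and DESeq2 40, 16 and 33 beside 26.1%, 39.1% and 32.3%.

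**Figure D2:**
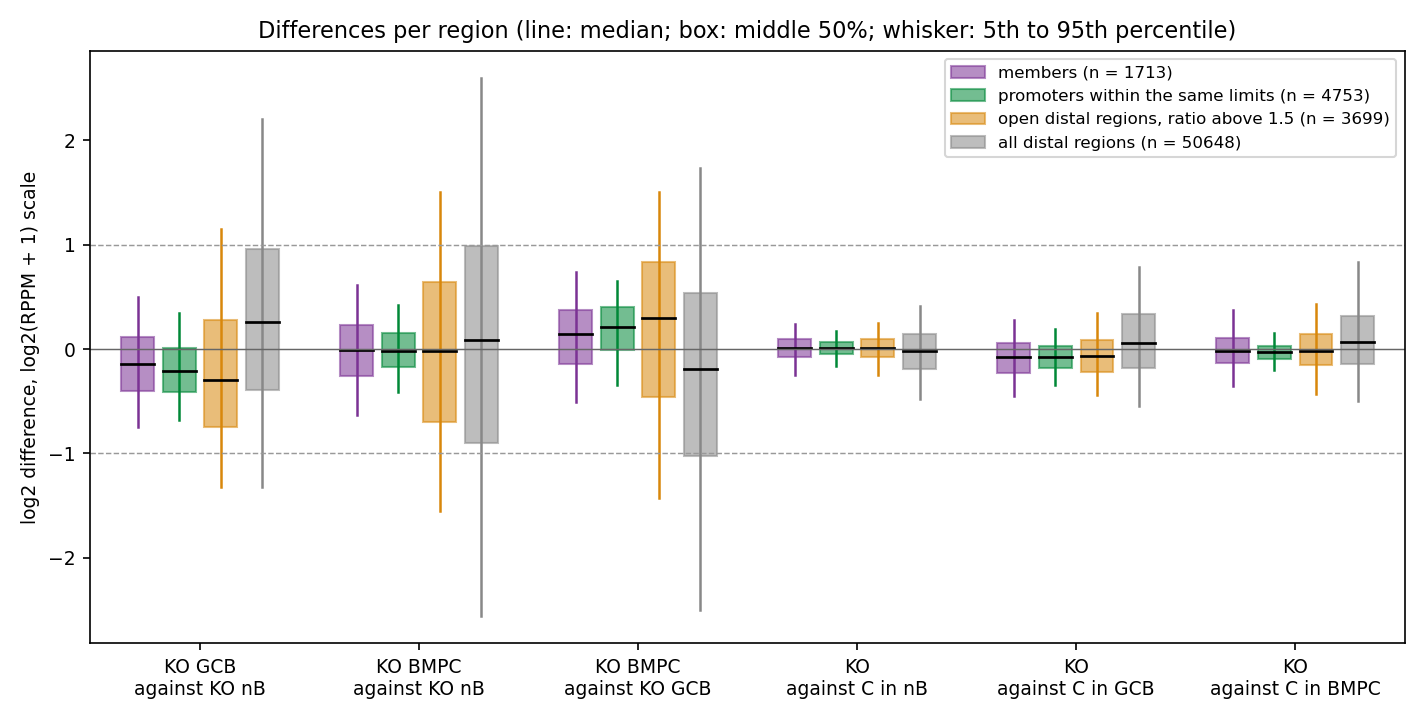
Log2 differences on the log2(RPPM + 1) scale (vertical axis) for 6 comparisons, in members and 3 other sets of regions, with the median, the middle 50% and the 5th to 95th percentile. In members the 5th to 95th percentile ran from -0.75 to 0.50 between KO GCB and KO nB, inside the dashed 2-fold lines, where in all distal regions it ran from -1.32 to 2.20.

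Among members lower in BMPC, the strongest against nB lies in an intron of Dlg4, which encodes a scaffold protein of synapses (chr11:69842528-69843747). This region contains the start of a protein-coding Dlg4 transcript in GENCODE vM1. It measured 35.9 and 39.2 RPPM in KO nB, 14.3, 23.5, 32.9 and 23.8 RPPM in KO GCB and 13.0 and 12.3 RPPM in KO BMPC. All GCB libraries lay between the other groups, and the log2 difference of BMPC from nB was -1.49 ± 0.23 (SE; limma, adjusted p = 5.68e-06). In C the same region, which the rule used, had means of 35.5, 34.1 and 27.7 RPPM. A member 12.8 kb from Laptm5, which encodes a lysosomal membrane protein that lowers B cell receptor levels, was called lower in BMPC against both other cell types (chr4:130455425-130456476). It measured 35.4 and 37.2 RPPM in KO nB, 47.4, 38.2, 46.9 and 52.4 RPPM in KO GCB and 17.7 and 12.5 RPPM in KO BMPC, with no overlap between BMPC and the rest. The log2 differences were -1.56 ± 0.15 from GCB (SE; limma, adjusted p = 2.21e-09) and -1.23 ± 0.18 from nB (SE; limma, adjusted p = 1.54e-06).

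The largest fall from GCB to BMPC was in an intron of Pxdc1 (chr13:34734945-34735872). It measured 20.9, 29.9, 25 and 26.6 RPPM in KO GCB, 6.32 and 9.52 RPPM in KO BMPC and 13.3 and 16.3 RPPM in KO nB. KO nB lay between the other groups, and the log2 difference of BMPC from GCB was -1.59 ± 0.19 (SE; limma, adjusted p = 1.13e-07). In C this region, chosen for like C levels, had means of 12.3 RPPM in nB, 14.8 RPPM in GCB and 14.8 RPPM in BMPC. The log2 difference of KO from C was 0.74 ± 0.19 in GCB and -0.84 ± 0.20 in BMPC (SE), and neither was called. A member 5.2 kb from Mog, a myelin gene of the nervous system, was lower in BMPC than in GCB by a log2 difference of -1.10 ± 0.17 (SE; chr17:37165546-37166168). The other members named as lower in BMPC than in nB lie 3.97 kb from 1700049G17Rik (log2 difference -1.31 ± 0.39; chr7:28718417-28719258) and on chr17 with no gene symbol (-1.27 ± 0.16; chr17:73599269-73600535). At 1700049G17Rik the 3 C nB libraries that helped to choose it were at 34.3, 7.72 and 6.51 RPPM, so its C mean hides a wide spread. Its call was lost without any of the 4 libraries compared (log2 differences from -1.53 to -1.10).

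Among members higher in BMPC, the largest rise over GCB was in an intron of St3gal1, which encodes a sialyltransferase (chr15:66985023-66985822). It measured 9.91, 12.1, 7.45 and 15.4 RPPM in KO GCB, 26.6 and 28.6 RPPM in KO BMPC and 20.6 and 16.9 RPPM in KO nB. GCB was lowest and BMPC highest with no overlap, and the log2 difference between them was 1.27 ± 0.21 (SE; limma, adjusted p = 1.09e-05). In an intron of Ikzf3, the gene of the lymphoid zinc finger factor Aiolos, a member at the edge of the level limit measured 10.7 and 9.05 RPPM in KO nB, 7.71, 8.91, 7.89 and 5.59 RPPM in KO GCB and 19.7 and 17.2 RPPM in KO BMPC (chr11:98358643-98359174). Both BMPC libraries lay above all others, and the log2 difference from GCB was 1.2 ± 0.21 (SE; limma, adjusted p = 2.07e-05). A member 5.19 kb from Zfp362 rose by a log2 difference of 1.24 ± 0.28 from GCB to BMPC (chr4:128488551-128489275), with 1 of the 4 GCB libraries at 4.41 RPPM and the others at 13.3 to 16.5 RPPM. Without that library (KO GCB replicate 1) the difference was 0.85 and no longer called.

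Against nB, the strongest rise in BMPC was 10.6 kb from Cstf1, which encodes a subunit of the mRNA cleavage machinery (chr2:172207108-172208135). It measured 4.61 and 10.4 RPPM in KO nB, 16.5, 21.6, 12.3 and 23.8 RPPM in KO GCB and 22.5 and 23.3 RPPM in KO BMPC. Both BMPC libraries lay above both nB libraries, by a log2 difference of 1.58 ± 0.49 (SE; limma, adjusted p = 0.00859). Of the C BMPC libraries that chose it, 1 read 1.71 RPPM and the other two 13.3 and 15.1 RPPM. Members 84.1 kb from Lclat1, a gene of cardiolipin remodelling (1.21 ± 0.23; chr17:73371809-73373212), and in an intron of Thsd4 (1.14 ± 0.28; chr9:60065979-60066873) complete the 3 largest rises. At Cstf1 the call was lost without KO nB replicate 1 (1.06), KO BMPC replicate 1 (1.60) or KO BMPC replicate 2 (1.55), and at Thsd4 without KO nB replicate 1 (1.11), KO nB replicate 2 (1.16) or KO BMPC replicate 2 (0.86).

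Between GCB and nB the named members are low regions. Those called higher in GCB lie 45.8 kb from Plekhg6 (log2 difference 1.07 ± 0.27; chr6:125376287-125376933), in an intron of the ubiquitin ligase gene Kcmf1 (1.04 ± 0.21; chr6:72818602-72819841) and at the cadherin gene Cdhr3 (1.0 ± 0.21; chr12:33803510-33804443). At Plekhg6 the KO GCB libraries were at 28.6, 17.8, 10.1 and 11.9 RPPM and the KO nB libraries at 8.23 and 5.90 RPPM, so the groups did not overlap but the GCB libraries spread widely. Those called lower lie in an intron of Irak2, a kinase gene of interleukin-1 and Toll-like receptor signalling (-1.28 ± 0.28; chr6:113599909-113600487), on chr7 with no gene symbol (-1.18 ± 0.29; chr7:113694464-113695392) and 17.6 kb from Xrcc6bp1 (-1.12 ± 0.19; chr10:126356037-126356603). At Irak2 KO nB measured 18.4 and 21.5 RPPM and KO GCB 5.51, 11.5, 11.8 and 4.19 RPPM, with no overlap. Of the 6 calls, that at Xrcc6bp1 was kept without any 1 library (-1.23 to -1.01), and the other 5 were each lost without at least 1. That at Plekhg6 was lost without KO nB replicate 2 (0.86) or KO GCB replicate 1 (0.80), and that at Kcmf1 without KO nB replicate 2 (0.98). At Cdhr3 it was lost without KO nB replicate 1 (0.81) or KO GCB replicates 1 (0.96), 3 (0.95) or 4 (1.0), at Irak2 without KO nB replicate 2 (-1.18), and at the chr7 region without KO nB replicate 2 (-1.03) or KO GCB replicate 2 (-0.79). Scaled with TMM factors, all 3 rises were short of a call, at 1.0, 0.97 and 0.92.

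**Figure D3:**
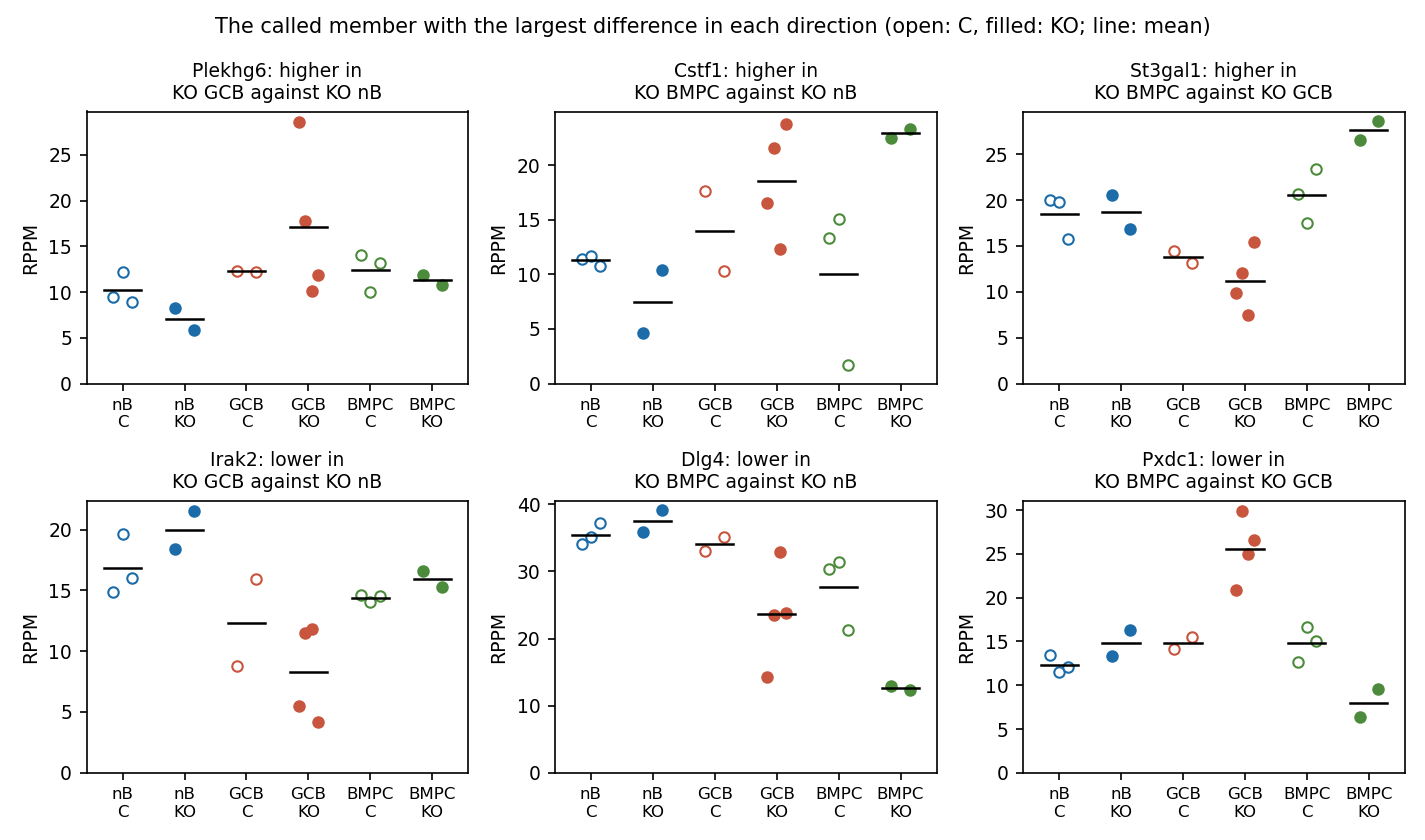
RPPM (vertical axes, from 0) in each library of the called member with the largest difference in each direction of the 3 comparisons of KO cell types, with open circles for C, filled circles for KO and a line at the mean. At Dlg4 the 2 KO BMPC libraries lie at 12.3 and 13.0 RPPM and the 2 KO nB libraries at 35.9 and 39.2 RPPM.

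Whether deletion of Dnmt3a and Dnmt3b altered these regions is asked by KO against C within each cell type. No member was called by limma in nB, GCB or BMPC, where 0%, 0.0317% and 0.104% of all regions were called. In GCB all 21 of these regions were higher in KO, and in BMPC 0.0907% of all regions were higher and 0.0136% lower in KO. The C libraries in these comparisons also chose the members. At an unadjusted p under 0.05 stood 41 members in nB (2.39%, beside 1.67% of all regions), 227 in GCB (13.3%, beside 11.8%) and 157 in BMPC (9.17%, beside 9.55%). On recovered reads, edgeR's quasi-likelihood test called 0, 0 and 4 members in the 3 cell types, its likelihood ratio test 0, 0 and 3, and DESeq2 0, 0 and 2, beside 0.0106%, 0.00151% and 1.81% of all regions for the first, 0.0151%, 0.0181% and 2.53% for the second and 0.00151%, 0% and 0.739% for the third.

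The 95% interval of the genotype difference lay within 2-fold in 1696 members in nB (99%), 1678 in GCB (98%) and 1668 in BMPC (97.4%), against 73.9%, 65.8% and 65% of all regions. Open variable regions were close to members, at 99.4%, 97.6% and 95.9%, and the promoter regions within the limits stood at 99.9%, 99.7% and 99.7%. The member with the smallest adjusted p in BMPC was that of Laptm5, at 28.0, 32.1 and 28.5 RPPM in C BMPC and 17.7 and 12.5 RPPM in KO BMPC. The KO libraries lay below every C library, and the log2 difference was -0.94 ± 0.16 (SE; limma, adjusted p = 0.00507), just short of 2-fold. The Dlg4 member was at 30.3, 31.4 and 21.3 RPPM in C BMPC and 13.0 and 12.3 RPPM in KO BMPC, with a log2 difference of -1.05 ± 0.21 (SE; limma, adjusted p = 0.0168). The C BMPC values of both regions also took part in the choice of members, so these p-values are given as a description. At Laptm5 the C means of nB, GCB and BMPC were 43.0, 44.3 and 29.5 RPPM, a ratio at the limit of 1.5. Whether the effect of genotype differed between cell types was tested by interaction contrasts in the same fit. For 0 members and 0 of all regions did it pass at an adjusted p of 0.01 in limma, and the smallest adjusted p of a member was 0.0412, between BMPC and GCB. At an unadjusted p under 0.05 stood 131, 79 and 162 members for GCB against nB, BMPC against nB and BMPC against GCB (7.65%, 4.61% and 9.46%), beside 6.21%, 5.24% and 8.32% of all regions.

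Of genes of the B lineage (22 genes such as Pax5, Ebf1, Syk and Cd79b), 268 distal regions are annotated to them in the table, of which 39 reached 10 RPPM in all C means and 12 are members, at Bach2, Bank1, Blk, Cd79b, Ebf1, Ikzf1, Ikzf3 and Syk. Of the 12, 5 met the limits in KO, 1 was called lower in GCB than in nB, 0 were called between BMPC and nB and 2 were called higher in BMPC than in GCB. Of all 268 distal regions, 57, 134 and 95 were called in these comparisons. The brightest of the 12 is 6.30 kb from the start of Ebf1, a transcription factor gene needed for B cell identity (chr11:44424323-44425339). It read 45.9 and 38.2 RPPM in KO nB, 24.2, 33.7, 32.9 and 30.1 RPPM in KO GCB and 25.1 and 27.8 RPPM in KO BMPC. It was highest in nB, with a log2 difference between BMPC and nB of -0.64 ± 0.18 (SE; limma, adjusted p = 0.00394). A member 4.0 kb from Cd79b, which encodes a signalling chain of the B cell receptor, averaged 26.1 RPPM over KO libraries (chr11:106171199-106171838). A member in an intron of Bank1, a B cell scaffold gene, averaged 24.6 RPPM (chr3:135749325-135750525).

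Of the 14 germinal center genes, 119 distal regions are listed, 16 reached 10 RPPM and 2 are members. Of the 2, 1 met the limits in KO and 0 were called in any of the 3 comparisons. Of the 119, 50, 62 and 60 were called for GCB against nB, BMPC against nB and BMPC against GCB. One of the members lies in an intron of Mef2b, a transcription factor gene of germinal centers (chr8:72683610-72684457), at 44.4 and 43.5 RPPM in KO nB, 40.8, 34.4, 48.2 and 38.5 RPPM in KO GCB and 40.9 and 55.4 RPPM in KO BMPC, where all groups overlap. The other, 19.6 kb from Cxcr4, the chemokine receptor gene that guides B cells within the germinal center, averaged 9.93 RPPM (chr1:130508462-130508779). It read 10.5 and 8.86 RPPM in KO nB, 7.71, 8.27, 7.01 and 7.69 RPPM in KO GCB and 13.1 and 16.2 RPPM in KO BMPC. BMPC lay above the rest, with a log2 difference from GCB of 0.85 ± 0.21 (SE; limma, adjusted p = 0.0012). Of the 16 plasma cell genes, 133 distal regions are listed, 24 reached 10 RPPM and 8 are members, with 7 within the limits in KO and 0 called. Of the 133, 45, 66 and 67 were called in these comparisons. Over all members, 2.74% were called in at least 1 of the 3. The 8 lie at Ell2, Herpud1, Irf4 and Mcl1.

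The Ell2 member is among the brighter ones, 35.6 kb from the start of this elongation factor gene, which plasma cells need for secretory immunoglobulin mRNA (chr13:75934935-75936302). It measured 65.8 and 75.2 RPPM in KO nB, 82.6, 80.2, 91.6 and 102 RPPM in KO GCB and 86.5 and 89.0 RPPM in KO BMPC. KO nB lay under the rest, and the log2 difference between BMPC and nB was 0.32 ± 0.12 (SE; limma, adjusted p = 0.0313). A member 11.5 kb from the start of Irf4, the transcription factor gene required for plasma cells, averaged 57.6 RPPM and was lower in KO BMPC (41.8 and 50.6 RPPM) than in KO nB (65.1 and 66.7 RPPM), by a log2 difference of -0.51 ± 0.14 (SE; limma, adjusted p = 0.00285; chr13:30852602-30853737). A member 20.5 kb from Herpud1, a gene of endoplasmic reticulum protein degradation, stood at 48.1 to 59.4 RPPM in all 8 KO libraries (chr8:96889111-96889930).

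Of the 13 looping genes, 59 distal regions are listed, 7 reached 10 RPPM and 3 are members. All lie at Yy1, which encodes a zinc finger factor that joins enhancers to promoters, and 3 of 3 met the limits in KO with 0 called, beside 12, 24 and 22 of the 59 in the 3 comparisons. They averaged 53.0 RPPM (chr12:109995822-109996661, the core of which is printed above), 50.2 RPPM (chr12:110032233-110032959) and 12.6 RPPM (chr12:110001679-110002098). Their distances from the Yy1 start are 34.9, 0.711 and 29.4 kb, so the second lies next to the promoter. The first and second are island-like by the measure given further on, and the second touches an exon. Among widely used genes, the translation factor gene Eef1a1 has a member 45.4 kb away, which measured 49.5 and 46.6 RPPM in KO nB, 48.5, 37.6, 52.6 and 60.8 RPPM in KO GCB and 46.2 and 47.6 RPPM in KO BMPC (chr9:78374893-78376188). The groups overlap, with a log2 difference between BMPC and nB of -0.04 ± 0.16 (SE).

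The 6 printed members with a CTCF core were open in all KO libraries, at 26.6 to 111 RPPM, and some of them differed between cell types by less than 2-fold. At Rnase12, a ribonuclease-like gene 5.69 kb away, KO nB measured 55.8 and 51.0 RPPM, KO GCB 55.1, 49.0, 64.0 and 60.1 RPPM and KO BMPC 63.5 and 63.5 RPPM. The ranges of nB and GCB overlap, and the log2 difference of GCB from nB was 0.09 ± 0.11 (SE; limma, adjusted p = 0.524). At Gm4971, 67.3 kb away, KO nB measured 111 and 98.4 RPPM, KO GCB 66.1, 69.4, 73.7 and 68.5 RPPM and KO BMPC 98.5 and 91.5 RPPM. GCB lay below both other cell types, with a log2 difference from nB of -0.58 ± 0.09 (SE; limma, adjusted p = 4.7e-06). At Stard10, a lipid transfer gene 5.71 kb away, KO nB measured 69.4 and 67.9 RPPM, KO GCB 41.9, 38.8, 56.1 and 60.1 RPPM and KO BMPC 70.9 and 70.9 RPPM. GCB was again lowest, with a log2 difference from nB of -0.50 ± 0.13 (SE; limma, adjusted p = 0.00278). At Dhx57, a helicase gene 11.9 kb away, the order was the opposite, with KO nB at 42.3 and 47.6 RPPM, KO GCB at 60.6, 69.4, 68.0 and 63.6 RPPM and KO BMPC at 52.8 and 52.3 RPPM, and a log2 difference of GCB from nB of 0.53 ± 0.12 (SE; limma, adjusted p = 0.000632). At Crb2, a cell polarity gene 3.90 kb away, KO GCB spread from 26.6 to 55.1 RPPM around the 44.5 and 49.2 RPPM of KO nB.

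The CTCF core occurred anywhere in the region, on either strand, in 300 of 1707 members (17.6%, 95% exact binomial interval 15.8 to 19.5%). Weighted to the widths of the members, the share was 11.8% in all distal regions, 11.7% in open variable regions and 9.98% in the promoter regions. The difference was largest in dim members. Unweighted, the share was 21.7% in members with a lowest C mean of 10 to 20 RPPM, 12.4% at 20 to 40 RPPM and 15.9% at 40 RPPM or more. In distal regions with a C ratio above 2 it was 8.75%, 10.5% and 16.3% at these levels. Of the 344 matches, 127 (36.9%) lay within 100 bases of the region's centre, at a median distance of 141 bases, with 170 on the plus and 174 on the minus strand. In the central 200 bases the core occurred in 111 members (6.5%). Weighted to the widths of the members, that share was 3.35% in open variable regions, 3.64% in promoter regions and 4.17% in all distal regions, and unweighted it was 2.78%, 1.96% and 9.74%. With only the outer 3 letters on each side fixed, 53.3% of members and 45.4% of distal regions at the same widths matched. A match is a run of letters and not a measured binding site, and intervals treat regions as independent.

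Among open distal regions, the core was less frequent where cell types differed more. In the KO libraries, which did not choose the members, distal regions whose KO means all reached 10 RPPM were sorted by the ratio of these means. The share with the core in the central 200 bases was 9.2% in the bin of lowest ratios (n = 250 regions), 7.27% in the next (n = 399), 5.75% in the bin that ends at 1.5 (n = 1114), 3.77% from 1.5 to 2 (n = 1828), 1.78% from 2 to 3 (n = 1462), 1.16% from 3 to 5 (n = 519) and 0 of 74 above 5 (interval up to 4.86%). Median width was 828 bp in the first of these bins and 1100 bp in the last. The level limit bears strongly on this share. Among distal regions with a C ratio of at most 1.5, the core stood in the central 200 bases of 31.4% where the lowest C mean was 2 to 3 RPPM (n = 665), of 37.1% from 3 to 5 RPPM (n = 1389), of 29.1% from 5 to 10 RPPM (n = 1565), of 11.1% from 10 to 20 RPPM (n = 819), of 2.77% from 20 to 40 RPPM (n = 541) and of 1.44% at 40 RPPM or more (n = 347). The share was thus highest at 3 to 5 RPPM and lower in each bin above it. Median width rose over these bins from 400 bp to 1177 bp, so the central 200 bases cover less of the brighter regions. Anywhere in the region, the core stood in 34.7%, 39.9%, 34.4%, 21.7%, 12.4% and 15.9% of them. The part of width in the fall was not tested. At a ratio above 2 the shares were 12.1%, 8.94%, 4.43% and 1.93% at the levels up to 20 RPPM, with 5 of 399 regions at 20 to 40 RPPM and 0 of 49 at 40 RPPM or more. In counts, 209 like-level regions with a central core lay at 2 to 3 RPPM, 515 at 3 to 5 RPPM and 456 at 5 to 10 RPPM, all under the level limit, against 111 members. Members with a core in their centre were also dimmer, at a median KO level of 14.8 RPPM, than the 24.3 RPPM of members with no core. They were narrower too, at a median of 584 bp against 838 bp.

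**Figure D4:**
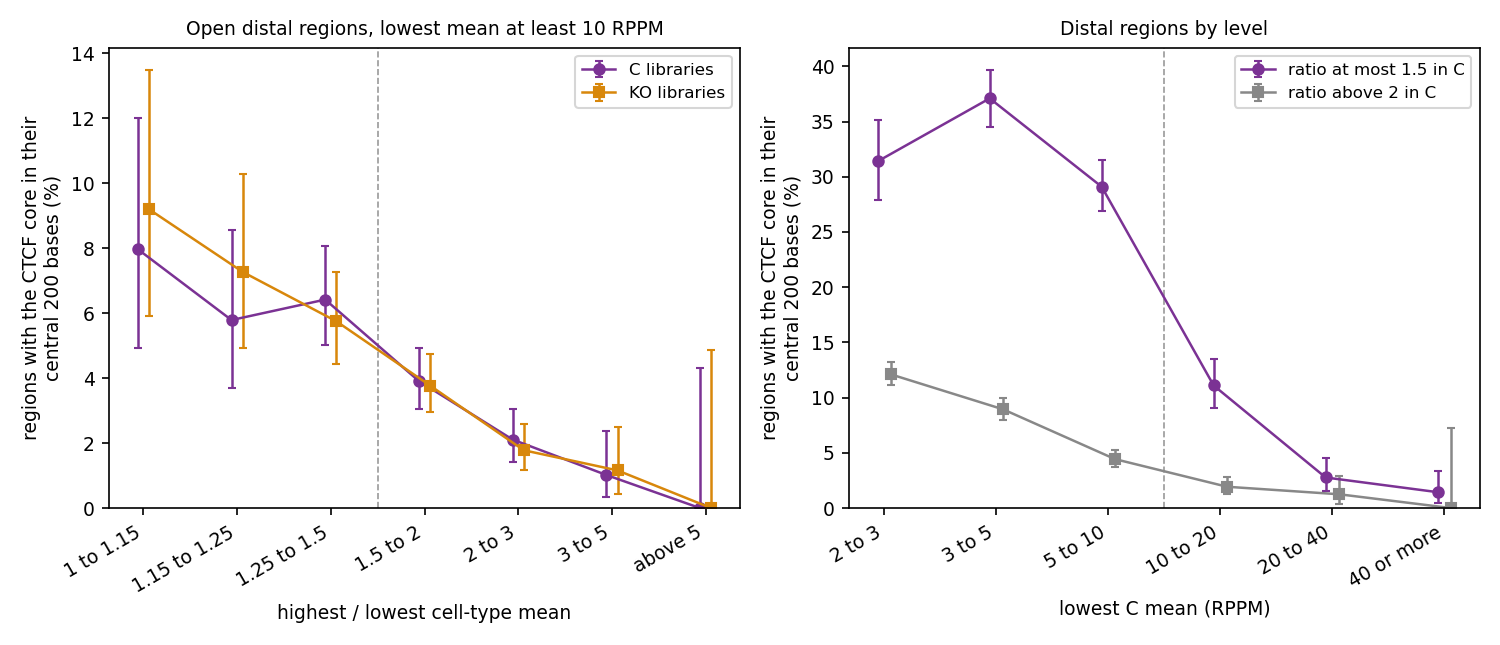
Share of regions with the CTCF core in their central 200 bases (vertical axes, %, with 95% exact binomial intervals), by the ratio of the highest to the lowest cell-type mean in distal regions at 10 RPPM or more in every mean (left, for C and KO libraries each by their own means) and by the lowest C mean in distal regions of like and unlike levels (right), with dashed lines at the limits of the rule. In regions of like level the share is 31.4% at 2 to 3 RPPM, 37.1% at 3 to 5 RPPM and 1.44% at 40 RPPM or more. The median width of these regions is 400, 466 and 1177 bp.

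Base composition put the members between distal regions and promoters. Their median GC content was 50.1%, against 47.3% in all distal regions, 49.2% in open variable regions and 59.2% in the promoter regions. The ratio of observed to expected CpG had a median of 0.329 in members, 0.278 in open variable regions and 0.745 in the promoter regions. At a GC content of at least 50% and a CpG ratio of at least 0.6, together called island-like here, stood 237 members (13.9%), against 8.4% of open variable regions, 3.6% of distal regions and 81.3% of the promoter regions. Of the 237, 139 had no GENCODE start within 1 kb. Island-like members were brighter, with a median KO level of 34.6 RPPM against 22.3 RPPM, and 75.5% of them met the limits in KO against 64.6% of the rest. Sorted in this order, 292 members (17.1%) have a start within 1 kb, a further 139 (8.14%) are island-like, a further 235 (13.8%) contain the CTCF core, and 1041 (61.0%) have none of these.

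Cores of 13 other factors were searched on both strands and compared at the widths of the members, and those of ETS and Sp1, which are typical of promoters, were more frequent in members than in all distal regions, with open variable regions between. The ETS core CCGGAAG stood in 14.6% of members (interval 13.0 to 16.4%), 11.1% of open variable regions, 8.73% of distal regions and 32.4% of promoter regions. The Sp1 core GGGCGG stood in 36.2% of members (33.9 to 38.5%), 32.1% of open variable regions, 25.7% of distal regions and 77.0% of promoter regions. The share with the ETS core was 15.2% at like-level regions of 20 to 40 RPPM and 25.1% at 40 RPPM or more. Cores of factors of B cell and plasma cell fates differed less from distal regions, in either direction: the PU.1 core GGAAGT in 60.0% and 57.4%, the E2A core CAGCTG in 44.2% and 47.1%, the IRF4 core GAAAC in 86.9% and 87.4% and the Oct-2 core ATGCAAAT in 9.37% and 10.3%. The RUNX core AACCACA stood in 21.9% and 25% and the AP-1 core TGANTCA in 23.4% and 25.8%. For NF-Y (AGCCAAT), YY1 (AAGATGG), NRF1 (GCGCATG) and ATF/CREB (TGACGTCA) the shares in members were 11.7%, 13.9%, 5.80% and 2.75%, beside 10.2%, 14.2%, 4.58% and 1.76%. The ZBTB33 core CTCGCGAGA was found in 4 members. Short cores recur by base composition alone, the letters of ETS and PU.1 overlap, and the E2A letters can lie inside the CTCF core.

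**Figure D5:**
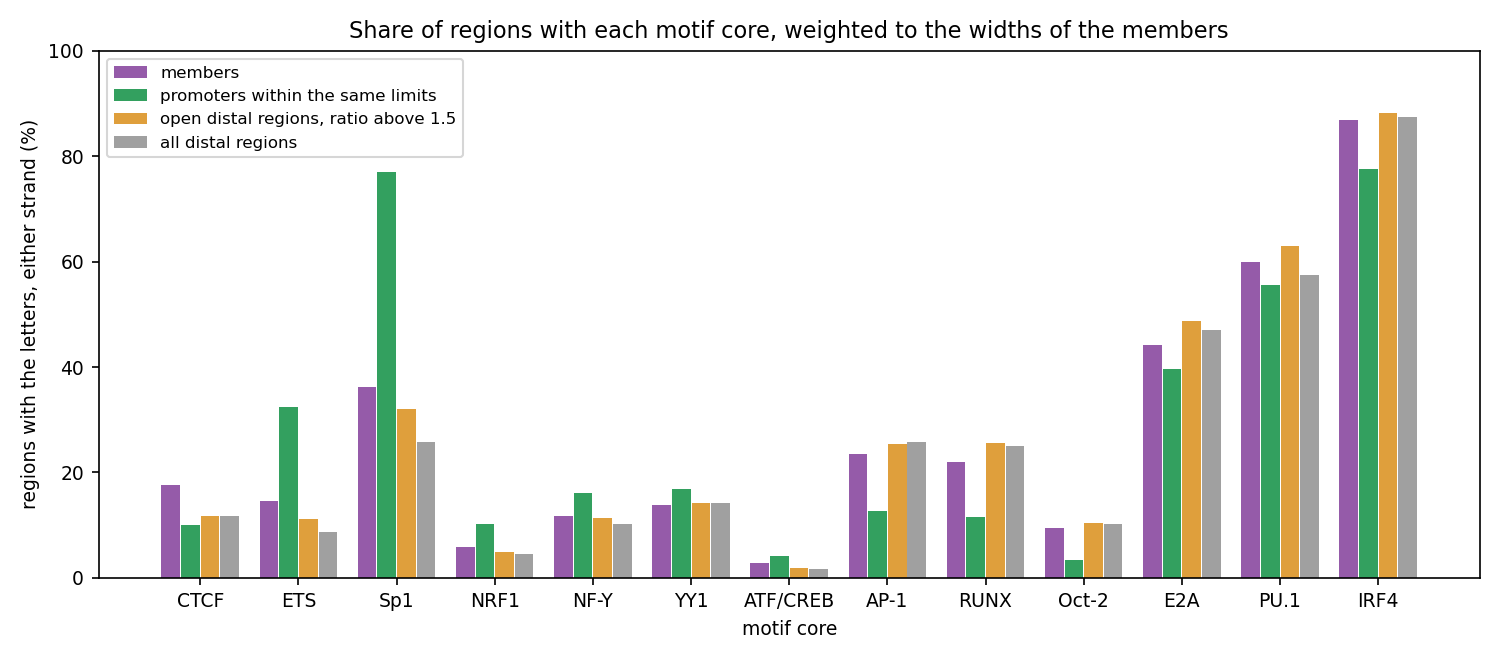
Share of regions (vertical axis, %) that contain the CTCF core or each of the other cores except that of ZBTB33 on either strand, in members and in 3 other sets weighted to the widths of the members. The Sp1 core stands in 36.2% of members, 77.0% of the promoter regions, 32.1% of open variable regions and 25.7% of distal regions.

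Called regions lay near members at a share close to that of all distal regions. Within 10 kb, centre to centre, 959 members (56.0%) have a distal region that was called between KO cell types, against 52.9% of all distal regions, 65.2% of open variable regions and 30.8% of the promoter regions. The median distance to such a region was 8.05 kb for members and 9.01 kb for all distal regions. Another member lies within 10 kb of 256 members (14.9%). A member lies that near to 13.8% of open variable regions, 5.81% of all distal regions and 5.64% of the promoter regions. The median distance to the next member was 98.7 kb for members, 125 kb for open variable regions and 241 kb for all distal regions. A promoter region within the same limits lies within 10 kb of 15.8% of members, 11.6% of open variable regions and 7.48% of all distal regions.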

How the data were processed

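ATAC-seq libraries of nB, GCB and BMPC from C and KO mice were taken as deposited, in 1 table of 66177 regions. The authors mapped reads to mm9 with Bowtie, called peaks with MACS2, merged the peaks of all samples and deposited RPM values of reads per 1000000 reads in peaks (RPPM). Tool versions differ between the sources and are not given. Columns of 9 comparisons of the authors (log2 fold changes, logCPM, test statistics, p-values, FDR and calls) were not used. Of 17 samples, 1 KO BMPC sample is not analysed here, since it has no column in the table used. The methods state that 1 sample was removed for its share of reads in peaks. Whole reads were recovered from RPPM for 100% of values within 0.001 reads.

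Members and gene lists were chosen with earlier results of these data known. Regions named are the 10 members with the highest mean over KO libraries, up to 3 called members per direction and comparison with the largest difference, up to 3 members per gene list with the highest KO mean, those printed as sequence, and those nearest each limit of the rule. Some named regions and markers are not reported here.

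All 16 libraries in 6 groups were fitted together with limma 3.58.1 (trend, R 4.3.3) on log2(RPPM + 1), with Benjamini-Hochberg adjustment over all regions and calls at 2-fold with an adjusted p no greater than 0.01. Alternatives used a pseudocount of 0.1 or 5 RPPM, other scalings, filters and samples, and counts with edgeR 4.0.16 and DESeq2 1.42.0. On recovered reads, edgeR's quasi-likelihood test called 19522, 28830 and 23246 regions between KO cell types (GCB against nB, BMPC against nB, BMPC against GCB) and 7, 1 and 1201 between genotypes in nB, GCB and BMPC. The limma fit was tested on simulated data. Motif letters were searched with Python 3.11.15 and pysam 0.24.0 in NCBIM37, the mm9 assembly, with transcript starts from GENCODE vM1. Shares at the widths of members were weighted over 10 width bins. Intervals of shares are exact binomial at 95% and cover counting error only, and differences have 95% intervals from limma. Pool labels were checked for pairing in GCB, where the labels F2 and M1 each occur in both genotypes. These labels are not the replicate numbers used here.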

Additional observations from a re-analysis of the deposited data

Results flagged for a closer look

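In 46 groups of 4 libraries (the KO GCB values of named regions and of the members' share of reads), the highest or lowest library was compared with the nearest of the others by Dixon's criterion, which chance passes in about 1 of 20 groups. It was passed by 1. At the member near Foxj2 (chr6:122760251-122762124) KO GCB replicate 4 read 182 RPPM and the others 173 to 174 RPPM.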

How the results depend on the processing

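Counts of called members were low under every alternative run, but moved with the scale. Between KO GCB and KO nB, where limma called 16 members beside 26.3% of all regions, there were 30 (24.3% of all regions) with a pseudocount of 0.1 RPPM, 0 (10.6%) with 5 RPPM, 31 (26.7%) with TMM factors, 27 (22.9%) with quantile normalization, 37 with either edgeR test (29.5% and 31.7%) and 40 (26.1%) with DESeq2, and leaving out 1 library gave 17 to 36 (17.4% to 27.1%). For KO BMPC against KO nB (15, beside 35.3%) there were 7 (19.3%) with 5 RPPM, and 10 to 18 (26.9% to 28.0%) without 1 library. For KO BMPC against KO GCB (22, beside 32.0%) there were 3 (15.3%) with 5 RPPM, 14 (32.1%) without chrM, chrX and chrY, and 16 to 32 (23.1% to 32.8%) without 1 library. A larger pseudocount shrinks low regions by construction, in members as in all regions, and the cause of the other changes was not tested. Between genotypes in BMPC (0, beside 0.104%) there were 1 (0.0997%) with TMM factors, 2 (0.277%) in a fit of the compared groups alone, 2 (0.607%) at an adjusted p of 0.05, 4 (1.81%) and 3 (2.53%) with edgeR's quasi-likelihood and likelihood ratio tests and 2 (0.739%) with DESeq2, and 0 to 0 without 1 library. In nB leaving out 1 library gave 0 to 1, with the 1 without C replicate 1 (0.00302% of all regions), and in GCB 0 to 0. Of 312 alternatives for the named called members, 262 kept the call, 50 lost it, 10 of these with 5 RPPM, and 0 reversed.

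A block by pool label was fitted for KO against C in GCB, where the labels F2 and M1 each occur in both genotypes. Libraries of the same label correlated at 0.036 (F2) and 0.064 (M1) in their deviations. The label is therefore not taken to pair them, and 0 members were called with the block.

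The number of members (1713) was 651 at the stricter ratio limit, 3485 at a limit of 2, 3284 at a level of 5 RPPM and 891 at 20 RPPM, and 1625 to 1793 without 1 library. Quantile normalization gave 1937 members, of which 1528 are shared with the deposited scale. The number within the limits in KO libraries (1133) was 1062 to 1136 without 1 library. The share of members with the CTCF core (17.6%) was 6.5% in the central 200 bases, 13.7% at a level of 20 RPPM and 53.3% with the looser core. Depth limits GCB most, where 10 RPPM is as few as 9.08 reads.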

Other observations

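Some genes have several members, and those described here were chosen after their values were seen. The 1464 members with a gene symbol are annotated to 1196 genes, of which 996 have 1 member, 200 at least 2 and 15 at least 4. The most members at 1 gene are 5, at Klrb1c, Inpp5d, Mef2c, Prkce and Hivep2, and 0 of these members were called between KO cell types. Klrb1c, in the natural killer receptor cluster, has 21 distal regions, 9 of them called between KO cell types, and members with KO means from 15.4 to 95.7 RPPM. Inpp5d, which encodes the phosphatase SHIP1 that restrains B cell receptor signalling, has 15 distal regions, 6 called, and members in its introns at 21.9 to 70.5 RPPM. Mef2c, a transcription factor gene of B cell activation, has 64 distal regions, 29 called, and members at 15.9 to 70.1 RPPM. Prkce, a protein kinase C gene, has 42 distal regions, 25 called, and members at 11.5 to 42.8 RPPM. Hivep2, a zinc finger factor gene, has 28 distal regions, 17 called, and members at 18.8 to 41.8 RPPM. Over the table, 58.1% of distal regions and 2.74% of members were called in at least 1 of these comparisons.

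The brightest member of Klrb1c (chr6:128788252-128789969) measured 99.9 and 93.5 RPPM in KO nB, 94.7, 98.7, 88.1 and 91.6 RPPM in KO GCB and 94.1 and 105 RPPM in KO BMPC. All groups overlap there.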
